A study of Mus musculus with 20 samples.

Results

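The immunoglobulin heavy chain variable (Ighv) segments were the 111 genes, of 28338 in the deposited table, whose symbol begins with Ighv and whose type is IG_V_gene in the GENCODE M21 annotation of mouse build GRCm38. They were compared in sorted spleen cells of C57BL/6 mice, taken on postnatal day 21, as the level of each segment among all RNA (CPM, the count scaled to a common library size) and as its share of all Ighv counts (usage). WT B cells, B cells labelled March1-/- and March1-/- cells sorted as CD24+ with intermediate levels of CD11c and of CD8 (CD11cint cells) gave 4 libraries each. Type 1 conventional dendritic cells (cDC1) of the WT and March1-/- genotypes, again 4 libraries each, served as cells that do not rearrange heavy chain genes. WT CD11cint cells were not analysed here, so every comparison of CD11cint cells is with a B cell group. March1 encodes a ubiquitin ligase that removes MHC class II and CD86 from the cell surface. The labels do not say whether libraries came from separate animals or from pools, and the p-values therefore reflect only the spread among libraries, which may be technical.

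Every B cell joins 1 V segment to a D and a J segment during its development, and the joined gene encodes the antigen-binding end of the antibody heavy chain. The V segment supplies the leader and most of the variable domain, including its first and its second antigen-contact loops. Segments of like sequence form families, named by the number before the hyphen in the symbol (VH1 for Ighv1 and so on). In the spleen, follicular B cells, marginal zone B cells, which face blood-borne antigen, and B-1 cells, which make natural antibody, are known to use different sets of V segments, and plasma cells hold far more heavy chain RNA per cell than resting B cells.

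The segments on which the comparisons below turn are shown with a relative of their family whose usage they are set beside. Each run is the last 290 bases of the V exon, written 5′ to 3′ on the minus strand of chromosome 12, where all 111 segments lie, and capitals mark the bases that differ within a pair. The sequences are those of the GENCODE M21 transcripts. The first pair, Ighv1-26 (chr12:114788372-114788661) and Ighv1-18 (chr12:114682632-114682921), is shown because its members went apart between genotypes; their V exons were 97.38% identical, with 8 differences in the stretch.
Ighv1-26: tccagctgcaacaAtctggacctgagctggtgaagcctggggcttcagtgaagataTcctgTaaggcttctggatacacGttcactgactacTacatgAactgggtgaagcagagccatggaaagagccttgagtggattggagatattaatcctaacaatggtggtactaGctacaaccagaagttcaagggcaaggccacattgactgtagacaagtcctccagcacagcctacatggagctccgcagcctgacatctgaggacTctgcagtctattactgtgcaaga
Ighv1-18: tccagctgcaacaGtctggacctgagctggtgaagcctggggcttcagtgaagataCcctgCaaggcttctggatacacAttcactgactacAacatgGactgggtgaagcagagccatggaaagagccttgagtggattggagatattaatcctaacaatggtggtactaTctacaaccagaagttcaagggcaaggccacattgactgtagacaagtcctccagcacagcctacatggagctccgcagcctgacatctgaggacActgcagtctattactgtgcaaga
Ighv8-8 (chr12:115294062-115294351) was lowered in CD11cint cells, and Ighv8-12 (chr12:115647945-115648234) did not pass the usage test; the V exons were 94.87% identical, with 16 differences.
Ighv8-8: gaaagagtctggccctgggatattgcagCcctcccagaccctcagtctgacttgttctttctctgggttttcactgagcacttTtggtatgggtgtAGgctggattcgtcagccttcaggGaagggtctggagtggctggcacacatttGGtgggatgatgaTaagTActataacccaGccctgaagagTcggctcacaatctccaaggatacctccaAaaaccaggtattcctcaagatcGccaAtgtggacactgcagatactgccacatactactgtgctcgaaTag
Ighv8-12: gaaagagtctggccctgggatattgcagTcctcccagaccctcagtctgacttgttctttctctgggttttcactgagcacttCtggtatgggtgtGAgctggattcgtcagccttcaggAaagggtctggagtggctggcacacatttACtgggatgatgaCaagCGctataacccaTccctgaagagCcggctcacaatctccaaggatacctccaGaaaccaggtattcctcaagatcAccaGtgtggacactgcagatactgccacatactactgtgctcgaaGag
Ighv14-4 (chr12:114176438-114176727) and Ighv14-2 (chr12:113994469-113994758) were both lowered in CD11cint cells, to unequal extents; the V exons were 95.74% identical, with 13 differences.
Ighv14-4: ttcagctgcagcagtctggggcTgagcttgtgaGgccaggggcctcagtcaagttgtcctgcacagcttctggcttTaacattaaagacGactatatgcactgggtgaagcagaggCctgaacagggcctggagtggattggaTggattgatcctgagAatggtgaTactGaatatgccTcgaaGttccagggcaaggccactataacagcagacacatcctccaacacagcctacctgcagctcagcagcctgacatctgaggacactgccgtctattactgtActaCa
Ighv14-2: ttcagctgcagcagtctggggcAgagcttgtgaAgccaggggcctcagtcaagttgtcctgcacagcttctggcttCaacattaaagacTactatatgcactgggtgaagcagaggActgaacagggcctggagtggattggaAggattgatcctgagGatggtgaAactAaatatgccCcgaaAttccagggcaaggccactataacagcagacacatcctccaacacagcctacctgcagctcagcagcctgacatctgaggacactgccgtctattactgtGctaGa
Ighv10-1 (chr12:114479005-114479294) and Ighv10-3 (chr12:114523441-114523730) make up the VH10 family. Both were raised in usage in CD11cint cells, and neither passed the test in level. The V exons were 96.81% identical, with 10 differences.
Ighv10-1: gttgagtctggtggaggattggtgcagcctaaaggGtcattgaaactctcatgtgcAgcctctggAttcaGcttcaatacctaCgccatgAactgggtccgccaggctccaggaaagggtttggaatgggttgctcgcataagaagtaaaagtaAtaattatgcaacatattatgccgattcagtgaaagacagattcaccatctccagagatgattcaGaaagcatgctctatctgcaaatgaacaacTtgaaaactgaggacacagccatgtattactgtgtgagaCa
Ighv10-3: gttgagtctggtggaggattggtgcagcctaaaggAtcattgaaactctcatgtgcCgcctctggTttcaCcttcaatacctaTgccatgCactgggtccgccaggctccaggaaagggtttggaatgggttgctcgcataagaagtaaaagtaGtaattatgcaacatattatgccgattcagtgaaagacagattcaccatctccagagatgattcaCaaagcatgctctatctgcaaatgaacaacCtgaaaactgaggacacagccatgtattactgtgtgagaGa
Reads that fall where a pair is identical cannot be given to 1 of them by sequence, and the sources used here do not say how such reads were counted. Over all members, the median identity of a V exon to its nearest relative was 95.41%. For 16 members it was at least 98%, and those are uncertain. Ighv1-62-2 and Ighv1-71 have identical V exons, and their counts differed by at most 4 in every library, at 159 to 440 counts for Ighv1-62-2 in B cell and CD11cint libraries.

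The total per library was 22491084 to 32751804 counts, and Ighv segments took 21489 to 54304 of them in the B cell and CD11cint libraries. A count filter over all genes kept 105 of the 111 segments, and the other 6 reached at most 4 to 19 counts in any library. Summed markers of B cells were at 8161 to 9262 CPM in the 12 B cell and CD11cint libraries and at 117.8 to 191.7 CPM in cDC1. Markers of cDC1 were at 4052 to 4710 CPM in cDC1 and at 28.6 to 86.2 CPM in the other libraries. March1 was at 137 to 158 CPM in WT and 134 to 171 CPM in March1-/- B cells, at 119 to 134 CPM in CD11cint cells, and at 322 to 380 CPM in WT and 253 to 272 CPM in March1-/- cDC1. It was thus lower in March1-/- cDC1 with no overlap, while the B cell groups overlapped, but the sources used here do not name the deleted part, and the whole-gene count is therefore no check of the genotype. March1-/- therefore means the libraries so labelled. The March1-/- B cell and CD11cint libraries numbered 1 deviated together from their groups more than other pairs did (r = 0.503 over all genes). Over the Ighv segments alone, r was 0.242 for that pair and highest, at 0.471, for the pair numbered 4. In comparisons with March1-/- B cells, counts of changed segments are given with and without the libraries numbered 1. Ranges over leaving out any 1 library are given in a later section.

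Ighv RNA was lower in CD11cint cells than in B cells of either genotype. Its summed level was 1208, 1631, 1604 and 1522 CPM in WT B cells, 1176, 1287, 1377 and 1210 CPM in March1-/- B cells, and 868.9, 937.1, 922.3 and 943.2 CPM in CD11cint cells. Every CD11cint library lay below every B cell library, and the B cell groups overlapped. The mean of CD11cint cells, 917.9 ± 33.8 CPM (SD, n = 4), was 72.7% of the 1263 ± 89.5 CPM of March1-/- B cells and 61.55% of the 1491 ± 194 CPM of WT B cells. In bulk RNA, fewer cells of a kind with much Ighv RNA and less Ighv RNA per cell cannot be told apart. Ighm, the constant region of IgM, was at 7785 ± 463 CPM in WT B cells, 7573 ± 248 CPM in March1-/- B cells and 6486 ± 646 CPM in CD11cint cells. It fell by 0.22 on the log2 scale against March1-/- B cells (SE 0.07, edgeR adjusted p = 0.0304), while the ratio of the summed Ighv levels was −0.46 on that scale. In cDC1, Ighv RNA was at 35.5 ± 9.78 CPM in WT and 28.1 ± 6.18 CPM in March1-/- mice, 2.378% and 2.222% of the level in B cells of the same genotype.

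**Figure D1:**
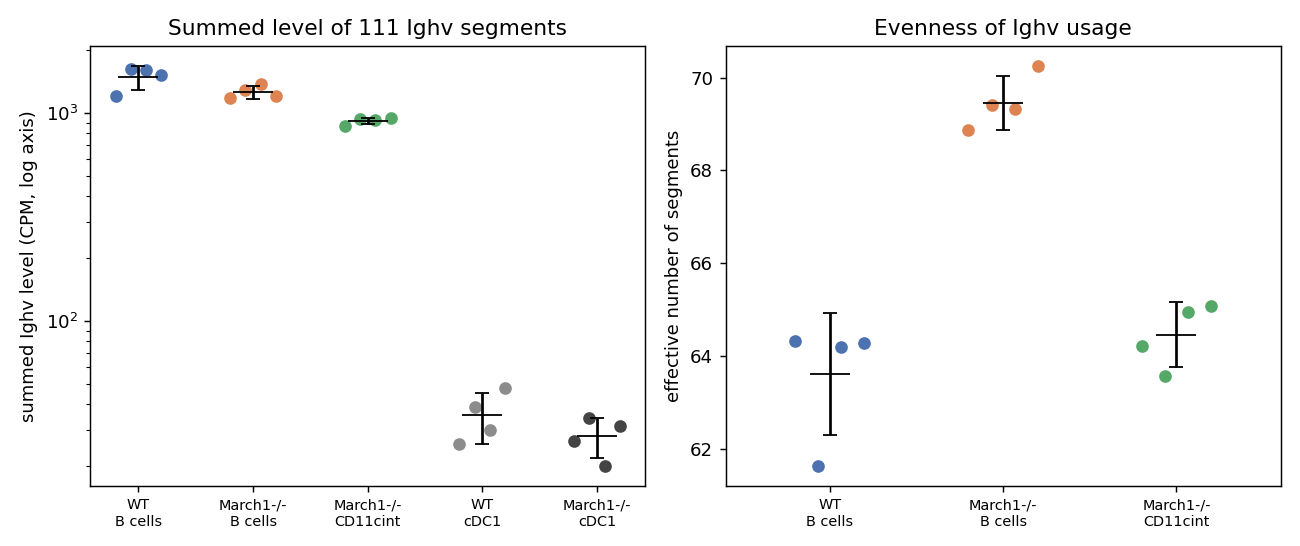
The left panel plots the summed level of the 111 Ighv segments in each of the 20 libraries (CPM, log axis), and the right panel the effective number of segments in the 12 B cell and CD11cint libraries. Points are libraries, long bars are means and error bars are SD (n = 4); the 4 CD11cint libraries, at 868.9 to 943.2 CPM, lie below all B cell libraries, and March1-/- B cells, at 68.9 to 70.3 segments, lie above both other groups.

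Many segments contributed to this RNA in every group. On average over the 3 groups, 36 segments held more than 1% of Ighv counts each and 19 held less than 0.1%, and the 10 highest together held 31.4%. These were Ighv6-3 (3.94%), Ighv1-26 (3.90%), Ighv3-6 (3.90%), Ighv9-3 (3.60%), Ighv1-53 (3.004%), Ighv1-82 (2.80%), Ighv1-55 (2.72%), Ighv1-64 (2.54%), Ighv1-80 (2.53%) and Ighv5-17 (2.47%). Segments differ in exon length, from 303 to 480 bases, and 8 of these 10 were also among the 10 highest in CPM per kilobase. Per kilobase the order began with Ighv1-26 (143 CPM per kilobase), Ighv3-6 (137), Ighv6-3 (133) and Ighv9-3 (127). Ighv1-26 was the most used segment in all 4 WT B cell libraries, at 5.57% to 6.27%, and in no March1-/- library of B cells or CD11cint cells did its share exceed 3.43%. The spread between libraries was larger in WT B cells: the median coefficient of variation over the 63 segments with a mean share above 0.5% was 12.35% there, 7.443% in March1-/- B cells and 7.173% in CD11cint cells.

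The number of segments in effective use was highest in March1-/- B cells. The effective number is the exponential of the Shannon entropy of the shares, and it equals the number of segments that would give the same evenness if all were used alike. It was 64.3, 61.6, 64.2 and 64.3 in WT B cell libraries, 68.9, 69.4, 69.3 and 70.3 in March1-/- B cell libraries, and 64.2, 63.6, 65.0 and 65.1 in CD11cint libraries. March1-/- B cells lay above both other groups with no overlap, and WT B cells and CD11cint cells overlapped. The means were 63.6 ± 1.31, 69.5 ± 0.58 and 64.5 ± 0.70 (SD, n = 4).

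B cells of the 2 genotypes differed in Ighv segments, most of all in Ighv1-26. In level, 9 of 105 segments passed the edgeR quasi-likelihood test (Benjamini-Hochberg adjusted p under 0.05 over all genes), 1 higher and 8 lower in March1-/- B cells. Among all tested genes 4.76% passed here, 2.31% higher and 2.44% lower. The median log2 fold change was −0.08 over the segments and −0.01 over all genes. Without March1-/- B cell library 1 the count was 5, all lower, and 590 of 18936 genes passed. In usage, 13 segments passed, 9 higher and 4 lower, against 6% of all genes, 1123 of 18710 (5.33% higher and 0.673% lower). The count was 38 without WT B cell library 1, but 7514 of the 18710 genes passed in that fit. It was 8 without WT B cell library 2 (560 of all genes) and 10 without March1-/- B cell library 1 (592 of all genes). The usage fit takes the summed Ighv count as the size of a library, so genes outside the family shift with the Ighv total: the median log2 fold change of all genes was 0.22 in this fit. When the size was instead scaled by TMM over the Ighv genes alone, 2 segments were higher and 8 lower. Under Holm adjustment over all genes, 3 segments passed (Ighv1-26, Ighv4-1 and Ighv1-34), all lower, against 0.85% of all genes. The largest unadjusted edgeR p among the 13 was 0.00231, a cut-off set by all genes that differs between comparisons. An unadjusted edgeR p under 0.05 in usage was reached by 41 segments here. It was reached by 36 in CD11cint against March1-/- B cells and by 33 in CD11cint against WT B cells. The counts called in usage therefore do not rank the comparisons. The share of all genes with an unadjusted edgeR p under 0.05 was not counted, so the 41, 36 and 33 do not rank them either.

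Ighv1-26 held 5.57%, 5.77%, 5.84% and 6.27% of Ighv counts in WT B cells, 2.69%, 2.74%, 2.57% and 2.35% in March1-/- B cells and 3.29%, 3.43%, 3.37% and 2.97% in CD11cint cells. All 8 March1-/- libraries of B cells and CD11cint cells lay below all 4 WT libraries. Its level was 67.2, 94.2, 93.6 and 95.4 CPM in WT B cells and 31.6, 35.2, 35.4 and 28.5 CPM in March1-/- B cells. The log2 fold change was −1.42 ± 0.12 in level (SE, edgeR adjusted p = 9.7e-08) and −1.18 ± 0.13 in usage (edgeR adjusted p = 4.2e-11). Its relative Ighv1-18, with 8 other bases in the stretch printed above, held 1.70% to 2.14% in WT B cells and 1.78% to 1.94% in March1-/- B cells, and its usage did not pass the test (−0.06 ± 0.14, edgeR adjusted p = 0.80). The few Ighv counts of cDC1 were split in the same direction: the share of Ighv1-26 was 6.75%, 5.45%, 4.91% and 6.56% in WT cDC1 (32 to 77 counts per library) and 2.22%, 1.26%, 3.09% and 1.48% in March1-/- cDC1 (13 to 17 counts). No test was made in cDC1, and this view was chosen after the B cell values were seen. Over the Ighv segments, same-numbered WT B cell and WT cDC1 libraries deviated with r of 0.164 to 0.376, and differently numbered ones with −0.344 to 0.107. For March1-/- libraries the same-numbered values were −0.18 to 0.0513. The source of Ighv RNA in cDC1 was not tested, so the split is not taken as that of a second cell type.

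The other segments with lower usage in March1-/- B cells were Ighv4-1, Ighv1-34 and Ighv1-80. Ighv1-34 held 1.14%, 1.14%, 1.20% and 1.20% in WT B cells and 0.735%, 0.585%, 0.738% and 0.628% in March1-/- B cells, with no overlap (−0.80 ± 0.15 in usage, edgeR adjusted p = 0.00019). Ighv4-1, the only VH4 segment of the table with type IG_V_gene, held 1.64%, 0.912%, 1.73% and 1.18% against 0.757%, 0.765%, 0.813% and 0.697% (−0.85 ± 0.16, edgeR adjusted p = 0.0002). The WT libraries were spread widely for Ighv4-1, but the lowest of them was above the highest March1-/- library. Ighv1-80 fell from 2.98 ± 0.37% to 1.92 ± 0.23% (SD, n = 4; −0.63 ± 0.14, edgeR adjusted p = 0.0011). In level, Ighv3-6, Ighv1-53, Ighv1-12 and Ighv1-50 fell as well. The fall of Ighv3-6 was −0.55 ± 0.15 (edgeR adjusted p = 0.035) and −0.31 without WT B cell library 2, where its share was 5.75% against 3.67% to 3.80% in the other WT libraries, and the call was then lost, as it was without any 1 of the 4 March1-/- B cell libraries. The call of Ighv1-53 was lost without WT B cell library 3, and that of Ighv1-12 without WT B cell library 1 or 2 or March1-/- B cell library 1, 2 or 4, and that of Ighv1-50 without WT B cell library 2 or 3 or March1-/- B cell library 1 or 4.

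Usage rose in March1-/- B cells for Ighv12-3, Ighv5-15, Ighv11-2, Ighv2-6-8, Ighv14-1, Ighv14-4, Ighv1-66, Ighv1-19 and Ighv2-5, by 0.53 to 0.93 on the log2 scale. Most of these are minor segments, with shares of 0.191% to 1.71% on average in March1-/- B cells. Ighv12-3 rose from 0.207%, 0.184%, 0.186% and 0.160% to 0.390%, 0.328%, 0.323% and 0.364% (0.93 ± 0.20, edgeR adjusted p = 0.0008). It was the only segment that rose in level, by 0.69 ± 0.18 (edgeR adjusted p = 0.024), and this call was lost without March1-/- B cell library 1 or 3 or WT B cell library 1 or 4 (edgeR adjusted p up to 0.0869). Ighv14-4 was high in March1-/- B cell library 3, at 1.85% against 1.02% to 1.18% in the other 3 libraries, and its rise of 0.61 ± 0.16 (edgeR adjusted p = 0.011) became 0.38 without that library (edgeR adjusted p = 0.132). The rise of Ighv1-19 (0.58 ± 0.15, edgeR adjusted p = 0.0094) was lost without March1-/- B cell library 4, and the rise of Ighv14-4 also without WT B cell library 2. With TMM over Ighv genes alone, Ighv12-3 and Ighv5-15 kept their calls and the other 7 rises lost theirs. Among these 7, Ighv2-6-8, Ighv14-1, Ighv1-66 and Ighv2-5 also lost the call without at least 3 different single libraries. WT B cell libraries 2 and 4 were among those for all 4 segments, with edgeR adjusted p of 0.0597 to 0.193 without either. Libraries 3 of WT B cells (all but Ighv1-66), 1 of March1-/- B cells (all but Ighv2-6-8), 3 of March1-/- B cells (Ighv2-6-8) and 2 and 4 of March1-/- B cells (Ighv2-5) were the others.

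**Figure D2:**
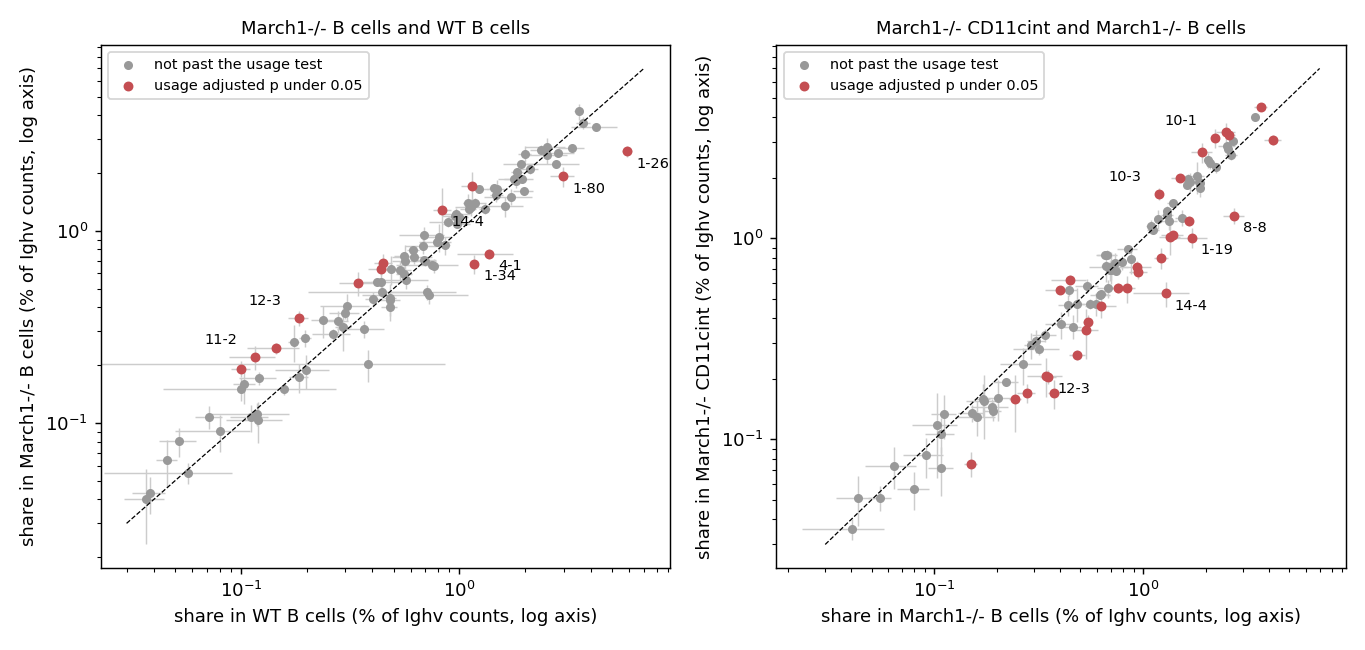
Each point is a segment with a mean share above 0.03% in both groups, at its mean share of Ighv counts (%, log axes), with SD over 4 libraries as grey bars, and the dashed line marks equal shares. Segments past the usage test are red; on the left Ighv1-26 lies farthest below the line, at 5.86% against 2.59%, and on the right Ighv8-8 and Ighv14-4 lie below it and Ighv10-1 and Ighv10-3 above.

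Other B cell markers moved with genotype, and their part in these differences was not tested. Of 8 marginal zone markers 6 fell in March1-/- B cells, with summed levels of 2811 to 3550 CPM in WT and 1787 to 2711 CPM in March1-/- B cells. Of 4 follicular markers 3 rose (1564 to 2081 and 2326 to 2817 CPM). Of 5 B-1 markers 0 passed edgeR's adjusted test and 4 had an unadjusted p under 0.05 (85.4 to 97.7 and 90.3 to 142.1 CPM). Of 7 plasma cell markers 0 passed and 4 had an unadjusted edgeR p under 0.05 (776.8 to 970.9 and 642.1 to 730 CPM). Those 4 were mixed in direction, with log2 fold changes of 0.51 ± 0.18 for Sdc1, −0.89 ± 0.30 for Jchain, −0.30 ± 0.09 for Xbp1 and −1.07 ± 0.47 for Tnfrsf17. Jchain was at 285 ± 96.6 CPM in WT and 154 ± 52.3 CPM in March1-/- B cells. Of 3 tested immature B cell markers 2 rose (48.9 to 54.9 and 75.6 to 144.8 CPM). Of 5 germinal centre markers 3 fell and 1 rose, with a median log2 fold change of −1.1 (72.3 to 94.7 and 54.7 to 93.4 CPM). Of 8 cDC1 markers 2 fell (43.9 to 59.0 and 28.6 to 41.3 CPM), and of 5 T cell markers 0 passed and 3 had an unadjusted edgeR p under 0.05 (54.0 to 60.9 and 65.3 to 83.0 CPM). The largest part of the T cell sum was Lck, at 48.6 ± 1.77 CPM in WT and 61.9 ± 7.88 CPM in March1-/- B cells. Rag1, Rag2, Vpreb1 and Igll1 fell below the count filter.

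CD11cint cells differed from March1-/- B cells by a broad fall in Ighv level and by a shift in usage. In level, 52 of 105 segments fell and none rose, while 24.7% of all tested genes passed, 12.5% higher and 12.2% lower. No segment rose by DESeq2 or limma-voom either, nor had any with a positive fold change an unadjusted p under 0.05 in edgeR (0 segments). The median log2 fold change was −0.53 over the segments and 0.01 over all genes, and 99 of the 105 were negative. Without library 1 of March1-/- B cells or of CD11cint cells, 49 and 41 fell. In usage, 33 segments passed, 10 higher and 23 lower. In this fit 62.5% of all genes passed (58.7% higher and 3.78% lower), since the median of all genes lay at 0.46, so the share of segments called is not read against it; the largest unadjusted p among the 33 was 0.0264. With TMM over Ighv genes alone the split was 21 higher and 18 lower. Under Holm adjustment over all genes 3 segments passed, all lower (Ighv14-4, Ighv8-8 and Ighv1-58), against 9.52% of all genes. Without library 1 of March1-/- B cells or of CD11cint cells the count was 28 and 32. This comparison shares its March1-/- B cell libraries with the one between genotypes.

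Among the segments with at least 10 CPM, Ighv14-4 and Ighv8-8 had the largest falls in usage. Ighv8-8 held 2.52%, 2.39%, 2.91% and 3.08% in March1-/- B cells and 1.27%, 1.16%, 1.32% and 1.44% in CD11cint cells. The groups did not overlap, and WT B cells, at 2.11% to 3.26%, lay above CD11cint cells as well. The log2 fold change was −1.07 ± 0.15 in usage (edgeR adjusted p = 9.6e-09) and −1.53 ± 0.19 in level (edgeR adjusted p = 4.7e-06). Ighv8-12, which differs from it by the 16 bases shown, held 1.54 ± 0.13% and 1.27 ± 0.11% (SD, n = 4; −0.28 ± 0.14 in usage, edgeR adjusted p = 0.085). Ighv14-4 held 1.18%, 1.08%, 1.85% and 1.02% in March1-/- B cells and 0.613%, 0.449%, 0.577% and 0.491% in CD11cint cells. It was below every March1-/- and every WT B cell library in each CD11cint library, with a log2 fold change of −1.27 ± 0.17 in usage (edgeR adjusted p = 8.5e-09) and −1.75 ± 0.24 in level (edgeR adjusted p = 1.6e-05). Ighv14-2 fell less, from 1.65 ± 0.077% to 1.22 ± 0.069% (−0.43 ± 0.14 in usage, edgeR adjusted p = 0.0085), and the difference between the falls was not tested. Ighv1-58, a minor segment, held 0.375 ± 0.026% and 0.169 ± 0.027% (−1.15 ± 0.21, edgeR adjusted p = 6.6e-06).

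Usage also fell for Ighv1-19, Ighv1-7, Ighv1-4, Ighv1-78 and Ighv9-3. Ighv1-19 went from 1.57%, 1.36%, 1.80% and 2.10% in March1-/- B cells to 0.945%, 0.983%, 0.926% and 1.18% in CD11cint cells (−0.76 ± 0.15, edgeR adjusted p = 4.1e-05). Ighv9-3, the most used segment of March1-/- B cells, went from 4.17%, 3.70%, 4.21% and 4.68% to 3.16%, 2.91%, 3.01% and 3.30% (−0.44 ± 0.13, edgeR adjusted p = 0.0032). Neither segment overlapped between the groups. Ighv1-7 and Ighv1-4, nearest to each other in sequence at 97.7% identity, fell by 0.61 and 0.57 on the log2 scale, and Ighv1-78 fell by 0.49. Smaller falls of Ighv4-1 (−0.42 ± 0.17, edgeR adjusted p = 0.028) and Ighv1-81 (−0.40 ± 0.16, edgeR adjusted p = 0.023) were each lost with TMM over Ighv genes alone and without some single libraries (edgeR adjusted p up to 0.0931 and 0.113). Those libraries were March1-/- B cell library 3 and CD11cint library 2 for Ighv4-1, and March1-/- B cell library 2 and CD11cint libraries 3 and 4 for Ighv1-81.

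The segments of higher usage in CD11cint cells were led by the VH10 family. Ighv10-1 held 2.21%, 2.31%, 2.18% and 2.17% in March1-/- B cells and 3.08%, 2.86%, 3.06% and 3.66% in CD11cint cells, with no overlap (0.51 ± 0.14, edgeR adjusted p = 0.0013). Ighv10-3 held 1.20%, 1.26%, 1.15% and 1.16% against 1.497%, 1.68%, 1.73% and 1.74%, again apart (0.48 ± 0.15, edgeR adjusted p = 0.0042). In level neither passed the test, at 0.06 ± 0.13 for Ighv10-1 and 0.02 ± 0.22 for Ighv10-3 (edgeR adjusted p = 0.80 and 0.96). The level of Ighv10-1 was 26.0 to 30.0 CPM in March1-/- B cells and 26.8 to 34.5 CPM in CD11cint cells, while the Ighv total was lower in the latter. Usage of Ighv1-80 (0.48 ± 0.14), Ighv1-82 (0.45 ± 0.14) and Ighv1-22 (0.41 ± 0.15) rose as well (edgeR adjusted p = 0.0028, 0.0054 and 0.0148). The rise of Ighv1-26 (0.34 ± 0.13, edgeR adjusted p = 0.021) was lost without March1-/- B cell library 4 or CD11cint library 2 or 3 (edgeR adjusted p up to 0.0803), and that of Ighv6-3 (0.30 ± 0.13, edgeR adjusted p = 0.037) without any of 6 single libraries, namely libraries 2, 3 and 4 of each group (edgeR adjusted p up to 0.132).

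**Figure D3:**
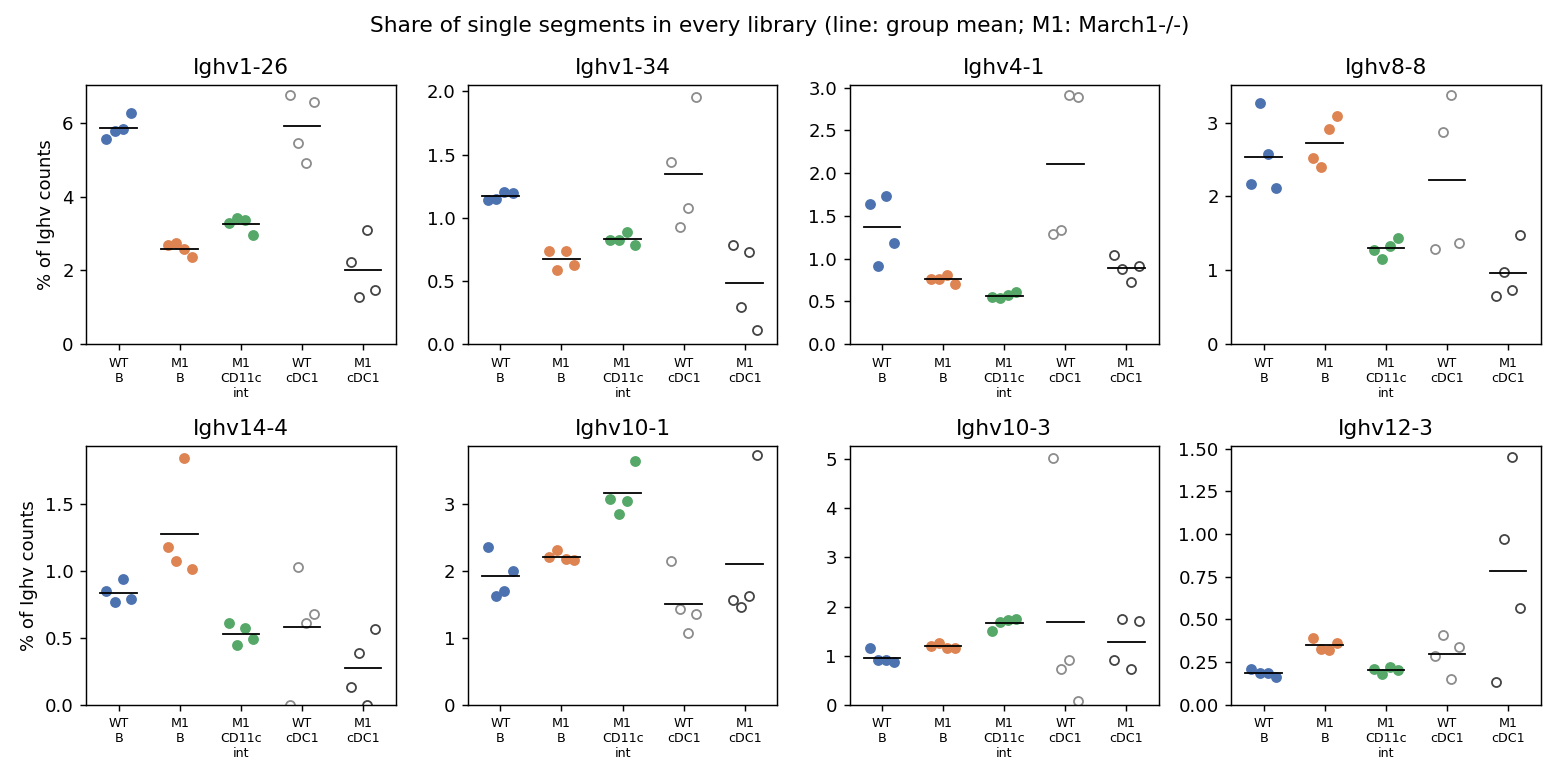
The share of 8 segments (% of Ighv counts, axes from 0) is plotted for every library, filled points for B cells and CD11cint cells, open points for cDC1, whose Ighv counts are few, and lines for group means. Ighv1-26 and Ighv1-34 are lower in March1-/- B cells and CD11cint cells than in WT B cells. Ighv8-8 and Ighv14-4 are lower in CD11cint cells than in B cells, and Ighv10-1 and Ighv10-3 exceed their March1-/- B cell values in every CD11cint library.

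Marker lists of other cell kinds moved with these differences, and their part in them was not tested. All 8 marginal zone markers rose in CD11cint cells (1787 to 2711 CPM in March1-/- B cells and 4283 to 5110 CPM in CD11cint cells) and all 4 follicular markers fell (2326 to 2817 and 1180 to 1300 CPM). All 5 B-1 markers fell (90.3 to 142.1 and 24.9 to 40.9 CPM), as did 4 of 5 germinal centre markers (54.7 to 93.4 and 23.4 to 39.8 CPM). Of 7 plasma cell markers 3 fell and 1 rose, with summed levels of 642.1 to 730 CPM in March1-/- B cells and 645 to 731.3 CPM in CD11cint cells. The largest falls to pass the test in that list were those of Sdc1 and Jchain. The plasma cell surface marker Sdc1 was at 14.6 ± 2.53 CPM and 1.497 ± 0.32 CPM (−3.27 ± 0.22, edgeR adjusted p = 6.2e-10), and Jchain, which links secreted IgM and IgA, at 154 ± 52.3 and 50.6 ± 9.41 CPM (−1.60 ± 0.31, edgeR adjusted p = 0.0011). Mzb1 of the same list rose by 0.49 ± 0.09 (edgeR adjusted p = 0.00043), and the median of the list was −0.41. Markers of cDC1 were at 28.6 to 41.3 and 68.1 to 86.2 CPM, and 5 of 8 rose. The largest part of that sum was Tlr3, at 14.2 ± 5.23 and 50.0 ± 5.36 CPM, and the others that rose were at 2.76 to 7.15 CPM in CD11cint cells. Itgax, the CD11c gene, was at 10.4 ± 2.47 and 10.7 ± 2.21 CPM and did not pass the test (edgeR adjusted p = 0.93). Of 3 tested immature B cell markers 2 fell, with the lowest median of these lists at −2.84 on the log2 scale (75.6 to 144.8 and 8.35 to 23.2 CPM), and all 5 T cell markers fell (65.3 to 83.0 and 28.2 to 31.7 CPM).

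Against WT B cells, the level of 51 of 105 segments fell in CD11cint cells and none rose, against 14% of all genes (5.99% higher and 8.04% lower), with a median log2 fold change of −0.70 against 0.01 for all genes. By DESeq2 and limma-voom none rose either, and 0 segments had a positive fold change with an unadjusted p under 0.05 in edgeR. In usage 27 segments passed, 15 higher and 12 lower, against 77.7% of all genes (75.8% higher and 1.91% lower, with their median at 0.69), and the largest unadjusted p among them was 0.0385. The split was 10 higher and 16 lower with TMM over Ighv genes alone. Without WT B cell library 1, 41 segments passed, and 14930 of 18710 genes. Genotype and cell population both differ here and cannot be told apart, and both groups were used in the comparisons above. Marker lists moved here too, and their part was not tested: all 8 marginal zone markers were higher, and 3 of 4 follicular, 4 of 5 B-1, all 5 germinal centre and all 3 tested immature B cell markers were lower. Of 7 plasma cell markers 3 were lower and 1 higher, 4 of 8 cDC1 markers were higher and 1 of 5 T cell markers was lower, and the summed levels are those given above for each group. Under Holm adjustment over all genes 5 passed, against 31.8% of all genes: Ighv4-1 (−1.27 ± 0.17), Ighv8-8 (−0.96 ± 0.15) and Ighv1-26 (−0.84 ± 0.13) were lower, and Ighv10-3 (0.79 ± 0.15) and Ighv10-1 (0.72 ± 0.14) were higher. Ighv5-17, Ighv1-82, Ighv1-52, Ighv2-2 and Ighv1-61 were higher by 0.41 to 0.53 on that scale, with edgeR adjusted p up to 0.0069. Ighv5-4 was higher by 0.35 (edgeR adjusted p = 0.0258), and its call was lost in 4 of 15 alternatives. Ighv5-17 held 2.14%, 1.92%, 1.85% and 2.09% in WT B cells, 2.70%, 2.73%, 2.26% and 2.39% in March1-/- B cells and 3.04%, 2.82%, 2.88% and 2.82% in CD11cint cells, the groups standing apart in that order. Ighv1-52 and Ighv1-61 are 98.69% identical, and Ighv2-2 is 98.03% identical to Ighv2-4, so their separate values are uncertain. Ighv1-12 had a log2 fold change of −1.0 ± 0.24 (edgeR adjusted p = 0.00065), or −0.59 without WT B cell library 1, where its share was 1.28% against 0.464% to 0.619% in the other WT libraries. Ighv1-81, Ighv14-4, Ighv9-1 and Ighv1-34 were lower by 0.50 to 0.67 on that scale.

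Family shares were described over libraries without a test. VH1, with 52 of the 111 segments, held 56.8 ± 0.93% of Ighv counts in WT B cells, 53.4 ± 0.51% in March1-/- B cells and 54.3 ± 1.40% in CD11cint cells (SD, n = 4). March1-/- B cells lay below WT B cells without overlap, and CD11cint cells overlapped March1-/- B cells. VH8 held 5.02%, 4.49%, 5.38% and 5.60% in March1-/- B cells and 3.23%, 2.84%, 3.34% and 3.51% in CD11cint cells, and VH14 held 4.19%, 4.03%, 4.71% and 4.12% against 2.98%, 2.70%, 2.98% and 2.78%. Both families, and also VH9 (5.75 ± 0.48% and 4.54 ± 0.23%), were lower in every CD11cint library. VH10 held 3.41%, 3.57%, 3.32% and 3.32% in March1-/- B cells and 4.58%, 4.54%, 4.79% and 5.40% in CD11cint cells, and VH3, VH5 and VH6 were also higher there with no overlap, by 0.368 to 0.755 percentage points. VH5, interleaved with VH2 at the end of the locus nearest to the D and J segments, held 6.86 ± 0.33% in WT B cells, 8.03 ± 0.20% in March1-/- B cells and 8.40 ± 0.09% in CD11cint cells, each group apart from the next. VH14 was higher in March1-/- B cells (4.26 ± 0.30%) than in WT B cells (3.03 ± 0.24%), and the range of CD11cint cells, 2.70% to 2.98%, overlapped that of WT B cells.

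**Figure D4:**
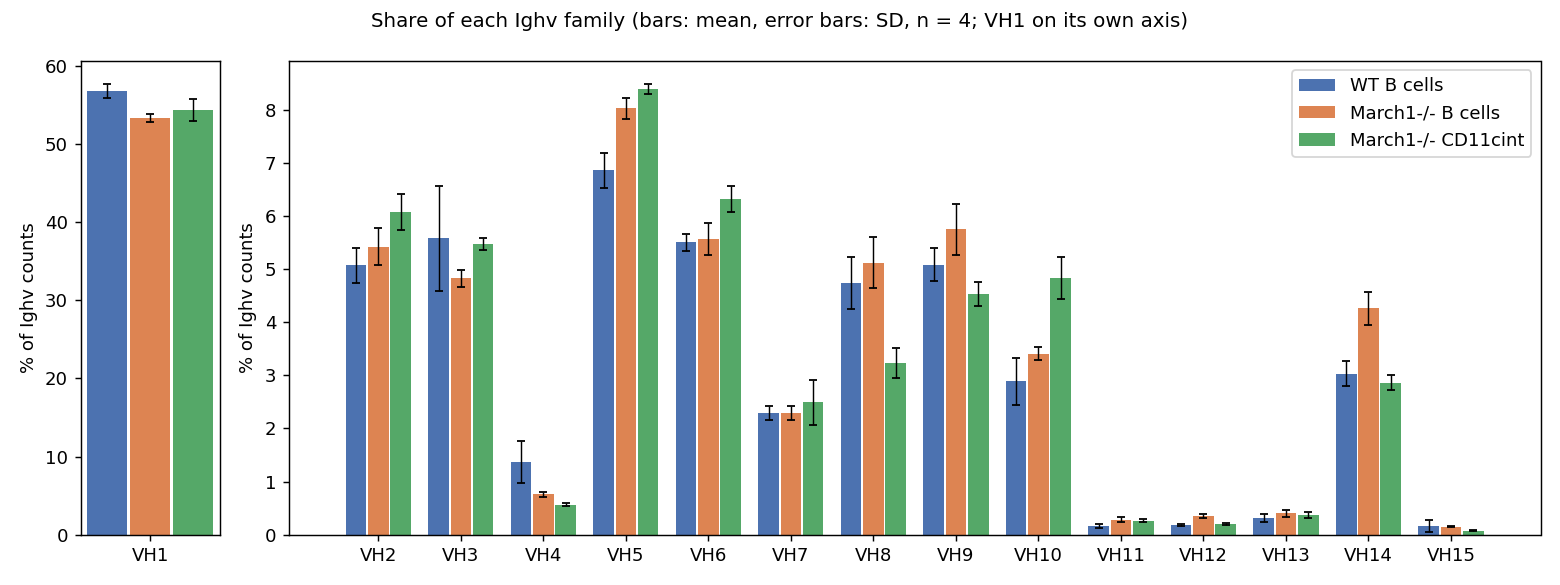
Bars give the mean share of each Ighv family (% of Ighv counts, axes from 0) in WT B cells, March1-/- B cells and CD11cint cells, with SD over 4 libraries, and VH1 stands on an axis of its own. VH8, VH9 and VH14 are lower and VH5, VH6 and VH10 higher in CD11cint cells, each set against March1-/- B cells.

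Segments with a known antigen or developmental role were low in every group except one. Ighv11-2 and Ighv12-3 are the V segments of antibodies to phosphatidylcholine made by B-1 cells. Ighv11-2 held 0.0889%, 0.153%, 0.119% and 0.104% in WT B cells, 0.228%, 0.263%, 0.199% and 0.192% in March1-/- B cells and 0.187%, 0.189%, 0.191% and 0.202% in CD11cint cells. Its usage was higher than in WT B cells in both other groups, by 0.92 ± 0.22 (edgeR adjusted p = 0.0042) and 0.72 ± 0.23 (edgeR adjusted p = 0.0036). Ighv12-3, in contrast, was lower in CD11cint cells, at 0.211%, 0.181%, 0.219% and 0.206%, than in March1-/- B cells (−0.78 ± 0.21, edgeR adjusted p = 0.0010), and its range overlapped that of WT B cells. In cDC1, Ighv11-2 held 0.431% to 0.822% (3 to 8 counts) in WT and 0.915% to 1.70% (7 to 15 counts) in March1-/- libraries, a view chosen after the values were seen. Ighv11-2 is 98.7% identical to Ighv11-1, so the reads of this pair are uncertain, whereas the nearest segment to Ighv12-3 is 80.13% identical. Ighv5-2, the functional segment nearest to the D and J segments and often joined early in B cell development, held 0.175 ± 0.01% in WT B cells, 0.265 ± 0.058% in March1-/- B cells and 0.237 ± 0.05% in CD11cint cells, and Ighv7-1, used against phosphorylcholine, 0.365 ± 0.089%, 0.307 ± 0.031% and 0.310 ± 0.041%. Ighv1-72, used against the hapten NP in C57BL/6 mice, held 1.77 ± 0.27%, 1.86 ± 0.094% and 1.90 ± 0.16%. The usage of these last 3 segments did not pass the test in any comparison (edgeR adjusted p of 0.058 or more).

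The segments span chromosome 12 from 113578504 to 116000461, and those called in usage were spread along it. Over the 92 segments with a mean share above 0.1%, the usage log2 fold change had a Spearman correlation with position of −0.09 in CD11cint cells against March1-/- B cells and −0.09 in March1-/- against WT B cells, and −0.23 in CD11cint against WT B cells. These are descriptions over segments of the same libraries. The 4 segments of lower usage in March1-/- B cells included Ighv1-26 (start 114788372) and Ighv1-34 (start 114851190), with Ighv4-1 nearer to the J segments (start 113948282) and Ighv1-80 far from them (start 115912344). In CD11cint cells the segments of the table next to Ighv10-1 and Ighv10-3, which were higher in usage, on their far side from the J segments were Ighv1-4 and Ighv1-7, which were lower.

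**Figure D5:**
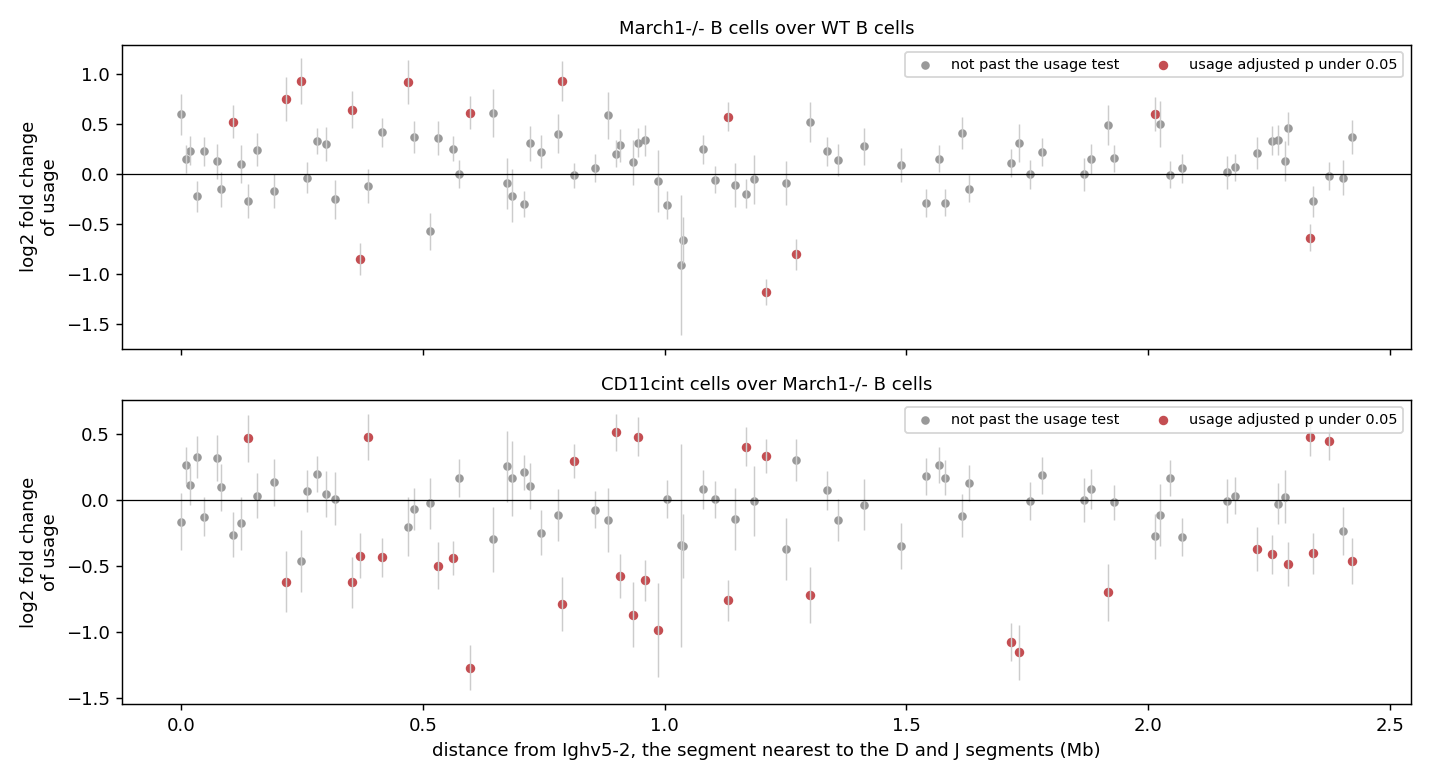
The log2 fold change in usage of 92 segments (vertical axis, bars are SE) is plotted against distance from Ighv5-2 in megabases, for March1-/- over WT B cells above and CD11cint over March1-/- B cells below. Segments past the usage test, in red, lie along the whole locus in both directions, and Ighv1-26 is the lowest red point of the upper panel.

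Genes of the antibody pathway gave the setting of these levels. Of 32 genes listed, 27 were tested. In March1-/- against WT B cells 3 rose, the IgD gene Ighd (0.61 ± 0.11), the light chain gene Iglc2 (0.47) and Vpreb3 (0.85 ± 0.10), and 3 fell, among them the switched isotypes Ighg2b (−1.15 ± 0.23) and Ighg3 (−0.79). In CD11cint against March1-/- B cells 12 fell and 1 rose, Mzb1, an endoplasmic reticulum chaperone component of marginal zone B cells and plasma cells (196 ± 14.2 CPM in March1-/- B cells and 276 ± 42.2 CPM in CD11cint cells, 0.49 ± 0.09). Ighg1 was at 20.2 ± 8.66 CPM in March1-/- B cells and 2.28 ± 0.65 CPM in CD11cint cells, and Ighd at 1386 ± 110 and 600.7 ± 38.0 CPM. The B cell receptor signalling chain gene Cd79a (−0.09) and the B cell factor gene Pax5 (0.02) did not pass the test. The list's median log2 fold change was −0.03 in March1-/- against WT B cells and −0.40 in CD11cint against March1-/- B cells, beside −0.01 and 0.01 over all genes.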

How the data were processed

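Per the labels' protocols, splenic cells were sorted on a BD Influx at 95 to 99% purity, RNA was purified with an RNeasy kit and libraries were made by TruSeq. The authors deposited raw gene-level read counts in 40 tables (20 libraries by 2 lanes) and in 1 table of the series. Build GRCm38 (mm10) and the tools STAR, Subread, CASAVA, FastQC, limma and edgeR are named in the submitters' processing notes, with no versions. The sources used here do not say how reads shared by several segments were counted, or whether strand was used; both can move reads between like segments, and reads over the junction with D and J may be lost. The lanes were summed, which equalled the deposited table in all 566760 cells. GENCODE M21 gave names for 28290 gene identifiers and holds 113 Ighv IG_V_genes, of which 111 were in the table and the others were not analysed here; 38 Ighv pseudogenes were left out.

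Levels were tested with edgeR 4.0.16 (R 4.3.3; quasi-likelihood F test, robust, filterByExpr, TMM) in 1 fit of all 20 libraries. It kept 18710 genes with 15 residual degrees of freedom. Usage was tested on the same genes in the 12 B cell and CD11cint libraries, with the summed Ighv count as library size and no TMM factor. Both p-values were adjusted over all 18710 genes by Benjamini-Hochberg, with 0.05 as threshold. In the usage fit, genes outside the family shift with the Ighv total, and 62.5% and 77.7% of all genes passed in the CD11cint comparisons. The adjusted p of usage is therefore lenient there and is no error rate over the segments. The words rose and fell are used for adjusted p under 0.05. Totals, effective numbers and family shares got no test. V exon identity came from global alignments in Biopython 1.88; sums and shares were computed in Python 3.11.15 with pandas 2.3.3. The fits were tested on simulated data.

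Named segments are the 10 of highest mean share, 5 of known role, and up to 8 per direction and comparison with the largest usage change at 10 CPM or more. Any with a library above 3 times its group's median share and a group mean of at least 10 CPM was also to be named, but none met this. Others were named after their values were seen. A single gene of the antibody pathway list is not reported here by name. Members and lists were chosen with earlier results of these data known. Same-numbered March1-/- B cell and CD11cint libraries deviated together (r of 0.213 to 0.503 over all genes in 4 pairs), so their numbers pair them; WT and March1-/- B cells did not (−0.0423 to 0.0506). Alternatives were other normalisations, filters, tools (DESeq2 1.42.0, limma 3.58.1), replicate blocks, denominators, Holm adjustment (added after seeing the data) and leaving out each library. Intervals of counting are not given; no molecular identifiers were used, and a count of 3 was taken as the floor.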

Additional observations from a re-analysis of the deposited data

Results flagged for a closer look

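Of 158 groups of 4 libraries examined for a library far from the others, 7 were found; chance flags about 1 in 20 groups, and 6 of the 7 lay in WT B cells. WT B cell library 2 had an effective number of 61.64 segments, against 64.19 to 64.32 in the other WT libraries. In the same library Ighv3-6 made up 5.747% of Ighv counts, against 3.673% to 3.801%, and the VH3 family, to which it belongs, 7.053%, against 4.983% to 5.172%. In WT B cell library 4, VH15, with the single segment Ighv15-2, made up 0.3276%, against 0.08839% to 0.1153%. In WT B cell library 1, Ighv1-61 made up 1.535%, against 1.396% to 1.41%, and Ighv10-3 1.148%, against 0.8709% to 0.9097%; the latter was still below every CD11cint library. In CD11cint library 2, VH15 held 0.06018%, against 0.07911% to 0.08243% in the other 3 libraries.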

How the results depend on the processing

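Of the 45 segments followed one by one through the alternatives, none took the direction opposite to its reported one in an alternative where either fit passed the test. Under the replicate block, 33 segments passed in usage between B cell genotypes, beside 4842 of 18710 genes. Between CD11cint and WT B cells 41 passed, beside 14737 genes. With the block within genotype these were 52 (7982 genes) and 49 (15474 genes), and 16 passed in level between B cell genotypes (1765 genes). The main fits called 1123, 14530 and 890 genes, so between B cell genotypes the calls rose over all genes as well. Numbers did not pair WT with March1-/- B cells. For CD11cint against March1-/- B cells, where numbers pair the libraries, either block changed the counts by less than 1.5 times. The replicate block gave 59 in level and 42 in usage (5569 and 12738 of all genes). The block within genotype gave 68 and 46 (6128 and 13807 of all genes), with 13 in usage under Holm adjustment. The p-values printed for this comparison are those of the fit without a block. Holm adjustment, added after seeing the data, left 3, 3 and 5 segments in usage (CD11cint against March1-/- B cells, March1-/- against WT B cells, CD11cint against WT B cells). Leaving out 1 library at a time gave 5 to 12 segments in level and 8 to 38 in usage between B cell genotypes, 22 to 41 in usage and 40 to 58 in level between CD11cint and WT B cells, and 27 to 32 in usage and 40 to 51 in level between CD11cint and March1-/- B cells. Over all genes the calls were 574 to 879, 560 to 7514, 13624 to 14930, 1780 to 3179, 9566 to 11454 and 3650 to 4751, in the same order. The cause was not tested. Without segments of at least 98% identity the effective number was 54.4 in WT B cells, 59.8 in March1-/- B cells and 55.1 in CD11cint cells, and the inverse Simpson index was 47.6, 55.7 and 50.0, in the same order of groups. With raw library sizes the Ighv total of March1-/- B cells was 1354 CPM. Depth limits cDC1 most, with 551 to 1174 Ighv counts per library, where 3 counts are a large part of a minor segment.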

Other observations

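Ighv1-11, a minor segment picked here after its values were seen, was high in 1 library. It had 57, 76, 78 and 528 counts in WT B cell libraries 1 to 4, and shares of 0.137%, 0.140%, 0.149% and 1.09%. In March1-/- B cells it held 0.152% to 0.242% and in CD11cint cells 0.122% to 0.200%. In WT cDC1 libraries 1 to 4 it had 0, 0, 3 and 22 counts, so that the library numbered 4 was highest in both WT cell types, at 1.87% of the Ighv counts of cDC1. Ighv15-2, also high in WT B cell library 4, had 158 counts there and 48 to 52 in the other WT B cell libraries, and 0 counts in all 4 WT cDC1 libraries. Ighv1-9 lies between these segments on chromosome 12, and the V exon of Ighv1-11 has a nearest relative of 81.97% identity, Ighv1-76.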
